A study of Mus musculus with 32 samples.

Results

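The genes described here are 10 factors and cell-state markers of the epithelial-mesenchymal transition (EMT): the cadherins Cdh1 and Cdh2, the cytoskeletal gene Vim, the epithelial genes Epcam and Esrp1, and the transcription factors Snai1, Snai2, Zeb1, Zeb2 and Twist1. They were chosen by name, and 7 of the 10 (Cdh1, Cdh2, Vim, Esrp1, Snai1, Zeb1 and Zeb2) were read from the 39676 genes counted. Epcam, Snai2 and Twist1 were not analysed here. RNA was sequenced from 32 whole, untreated tumors, each from a separate mouse, 8 for each combination of model (AB1 or AE17) and site (IPL or SC). Both models are mouse mesothelioma cell lines, and 500000 AB1 cells were inoculated into BALB/c mice or 1000000 AE17 cells into C57BL/6 mice. The cells went into the pleural cavity (IPL, in 200 µL) or under the skin of the right flank (SC, in 100 µL), and tumors were taken on day 10. All mice were female and 8 to 10 weeks old. Each model is a single cell line in a single host strain at a single cell number, so these cannot be told apart in any comparison between AB1 and AE17.

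EMT is the switch by which epithelial cells loosen their junctions and take on a motile, fibroblast-like form, and it is studied in cancer for its link to invasion. The SNAI and ZEB factors are zinc finger repressors that bind E-box sequences in the promoters of Cdh1 and other epithelial genes. Mesothelium, the lining of the pleura, expresses both epithelial and mesenchymal genes in health, and mesotheliomas range from epithelioid to sarcomatoid forms. In whole tumors these genes are also read from host cells: fibroblasts and macrophages carry Vim, Zeb1 or Zeb2, and some dendritic cells and epithelia carry Cdh1. A lower value can come from fewer cells of a type or from less RNA per cell, and the counts cannot tell these apart.

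Of the 6 members that passed the filter on low counts, Snai1 had the widest fold between the models at both sites, and its protein acts by binding E-boxes, so the sequence before its own transcript start is shown. Positions here are those of public annotations of GRCm38 and not of the deposited counts, for which the study's methods name the genome as mm11. The sequence is the 250 bases at chr2:167537945-167538194 (GRCm38.p6, plus strand, from RefSeq), of which 70.0% are G or C. Capitals mark the single match to the E-box searched for (CAGGTG or, on the other strand, CACCTG), which lies 126 bases before the start.

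Snai1: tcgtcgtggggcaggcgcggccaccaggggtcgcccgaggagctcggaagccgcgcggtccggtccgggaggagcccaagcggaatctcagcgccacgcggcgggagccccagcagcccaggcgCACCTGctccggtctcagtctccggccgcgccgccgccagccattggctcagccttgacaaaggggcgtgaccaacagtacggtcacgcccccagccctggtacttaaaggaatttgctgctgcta

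The same motif was present in 17.2% of 32851 RefSeq promoter windows of this length. It was found in neither the window of Vim nor any of the 4 windows of Zeb2. No result is given here for Cdh1, Cdh2, Esrp1 or Zeb1, so the motif is not shown to be particular to Snai1. A match describes the letters of this stretch and is not a measured binding site.

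Total counts per tumor ranged from 15432258 to 20649645. Levels are given as CPM, which are counts scaled by library size and trimmed mean of M-values (TMM) factors. A floor of 3 counts corresponded to 0.140 to 0.190 CPM on this scale, a limit that covers counting error only. The column names place all AB1 IPL tumors on sequencing lane 3, 6 AB1 SC tumors on lane 2 and 2 on lane 3, 5 AE17 IPL tumors on lane 2 and 3 on lane 1, and all AE17 SC tumors on lane 1, so lane and group overlap only in part. No lane held both models at the same site, so no value within a lane can be had for a comparison of models. Among the AB1 IPL tumors 2 stood apart. In replicate 4, genes with more than 6 kb of exon were lower by a median of 0.29 on the log2 scale, relative to genes under 2 kb, which was the widest such gap of the 32. Replicate 2 had the lowest median correlation with its group (0.951, beside 0.955 for replicate 4 and 0.966 to 0.980 for the others). Its skeletal muscle markers summed to 107 CPM beside 633 to 4925 CPM in the other 7 tumors, and its mesothelium markers to 81.7 CPM beside 0.704 to 4.00 CPM. Without it Cdh1 and Snai1 were still called between the sites in AB1 (log2 -1.78, edgeR adjusted p = 0.000800, and 0.53, adjusted p = 0.0169). Summed markers of mesothelium (6 of 8 with a value) were 0.704 to 81.7 CPM in AB1 IPL, 1.11 to 3.85 in AB1 SC, 0.0594 to 20.8 in AE17 IPL and 0.241 to 0.823 in AE17 SC, and Muc16 was at 0 in every AB1 SC tumor. Medians were 8.01 CPM in AE17 IPL and 0.515 CPM in AE17 SC tumors. Apart from replicate 1, every AE17 IPL tumor lay above every AE17 SC tumor. No mesothelium marker entered the test between sites in AE17. The part of mesothelial cells in the AE17 site differences was not tested.

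Per kilobase of exon, Vim, the main intermediate filament of mesenchymal cells, was by far the most abundant member, with group means of 675 to 900 CPM per kb. Snai1 had 9.66 to 23.4 CPM per kb. Cdh2 had 7.44 to 11.3, Zeb1 8.45 to 10.1 and Zeb2 6.71 to 8.15 CPM per kb. Cdh1 had 1.83 to 6.49 CPM per kb and Esrp1 at most 0.0407. Lengths were those of all annotated exons of a gene merged, not of single transcripts, so the order of members close in value depends on this choice. The order Vim, Cdh2 and Cdh1 was therefore the same in the group means of all 4 groups, and the mesenchymal cadherin exceeded the epithelial cadherin in each.

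**Figure D1:**
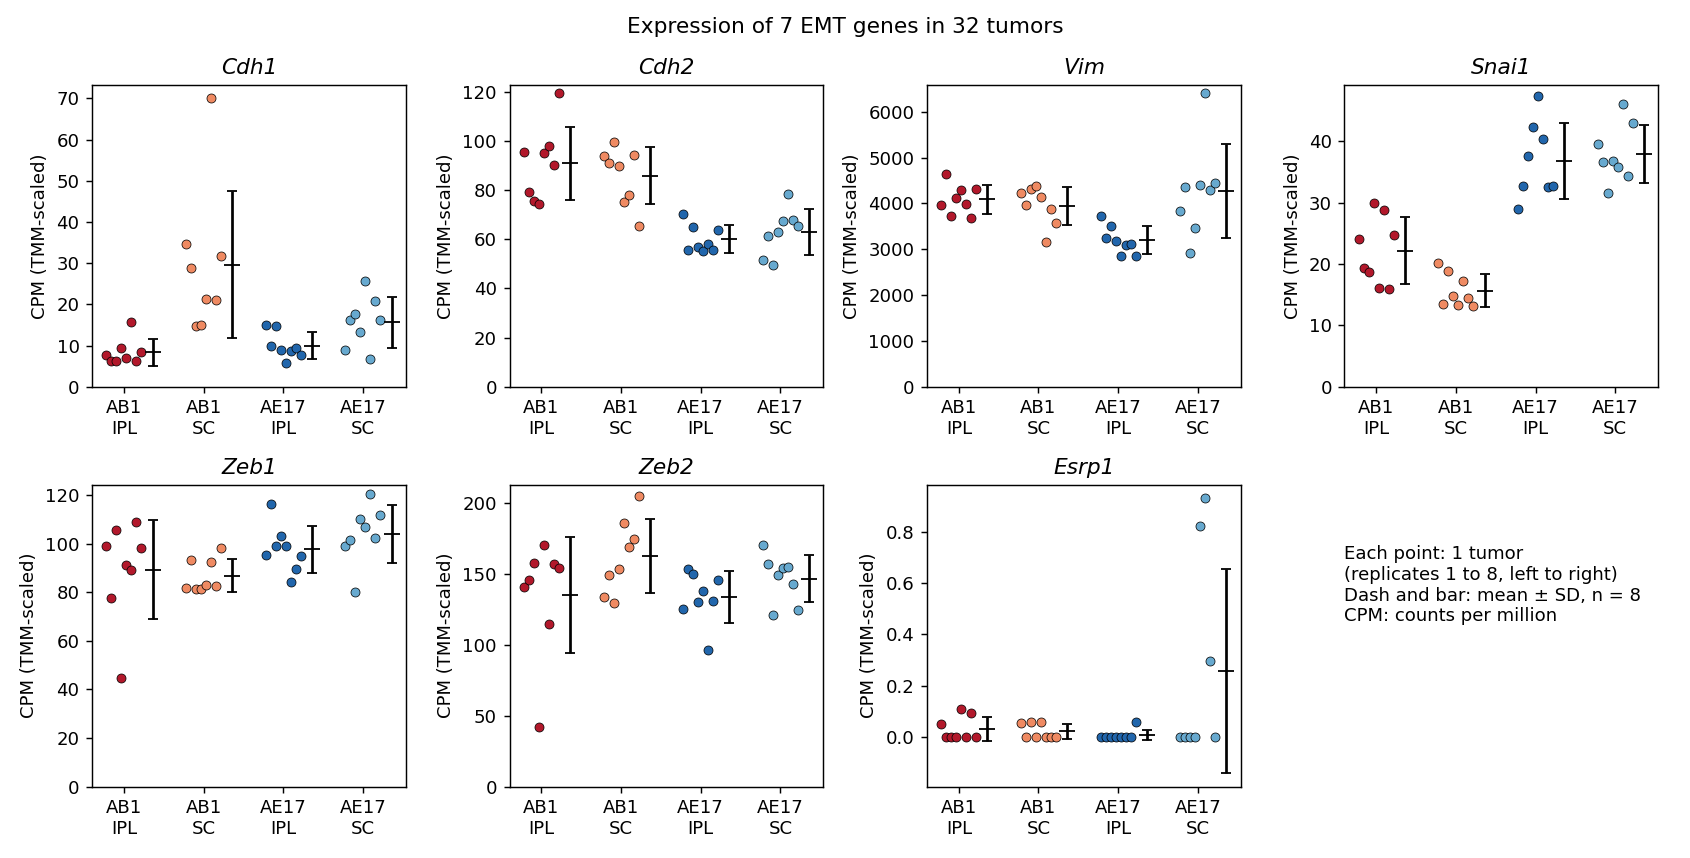
Expression of the 7 measured EMT genes, in CPM, in each of 32 tumors (points, replicates 1 to 8 from left to right in each group) with the group mean and SD (n = 8). Cdh1 sits highest in AB1 SC tumors, where replicate 6 reached 70.0 CPM, Snai1 is lower in both AB1 groups than in both AE17 groups, and Esrp1 is near 0 except in 3 AE17 SC tumors.

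Cdh1 encodes E-cadherin, the adhesion protein of epithelial adherens junctions (ENSMUSG00000000303.12, chromosome 8, 106603351 to 106670246, GRCm38). In AB1 tumors it was 3.59-fold lower in the pleural cavity than under the skin. IPL tumors had 6.17 CPM at the lowest, 7.30 at the median and 15.8 at the highest. SC tumors had 14.8, 25.04 and 70.0 CPM. The groups touched at a single point, since 7 of 8 IPL tumors lay below every SC tumor and IPL replicate 6 lay just above the 2 lowest of them. The log2 fold change was -1.85 (SE 0.306, edgeR quasi-likelihood test, adjusted p = 0.000408). It was -1.52 (adjusted p = 0.000368) without AB1 SC replicate 6, and within lane 3 alone, 8 IPL against 2 SC tumors, it was -1.99 (adjusted p = 0.0146).

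In AE17 tumors Cdh1 did not pass the test. IPL tumors had 5.69, 9.19 and 15.1 CPM and SC tumors 6.70, 16.1 and 25.8 CPM (lowest, median, highest), and every IPL tumor lay below the SC median while 5 of 8 SC tumors lay above all IPL tumors. The log2 fold change was -0.64 (SE 0.25, edgeR unadjusted p = 0.0197, adjusted p = 0.122). The interval of this difference ran from -1.18 to -0.11. With limma-voom and sample weights it was -0.87 and passed (adjusted p = 0.00578), and within lane 1, 3 IPL against 8 SC tumors, it was -0.86 (adjusted p = 0.306).

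The site difference of Cdh1 was wider in AB1 than in AE17 by 1.18 on the log2 scale (edgeR interaction -1.18, SE 0.405, adjusted p = 0.0360). This call rested on single tumors: it was lost without AB1 SC replicate 6 (-0.87, adjusted p = 0.0830) and without any of 9 others (AB1 IPL replicates 1, 2, 3 and 7, AB1 SC replicate 1, AE17 IPL replicates 1 and 3, AE17 SC replicates 4 and 6), where adjusted p lay between 0.0500 and 0.0623. It was also lost in 4 of 7 other settings, including the sequencing lane as a covariate (-1.07, adjusted p = 0.372).

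Markers of cells that can carry Cdh1 differed between the sites in part. Dendritic and Langerhans cell markers (7 of 7 with a value) summed to 28.7 to 91.5 CPM in IPL tumors and 74.3 to 104 in SC tumors. Among them Itgae, which encodes the integrin that binds E-cadherin, fell in IPL tumors by 0.79 on the log2 scale (edgeR adjusted p = 0.00563), and Cd209a fell by 1.04 (adjusted p = 0.00759), while the other 5 did not pass. In AE17 the same sum was 35.6 to 67.4 CPM in IPL and 46.7 to 99.5 CPM in SC tumors, and Cd209a fell by 1.72 (adjusted p = 0.00598), the only one of 6 tested that passed. T cell markers (6 of 6) are given as another host cell type, not as a carrier of Cdh1. They summed to 15.8 to 72.2 CPM in AB1 IPL and 78.4 to 147 CPM in AB1 SC tumors, which did not overlap. In AE17 the medians went the other way, 104 CPM in IPL and 54.5 CPM in SC tumors, and none of 6 passed. Lung epithelium markers (8 of 10) summed to 10.7 to 30.9 CPM in AB1 IPL and 18.5 to 31.3 CPM in AB1 SC tumors, with Nkx2-1 at 0 in every AB1 IPL tumor. Other epithelial markers went both ways in AB1. The lung epithelium marker Napsa fell in IPL tumors by 0.68 on the log2 scale (edgeR adjusted p = 0.0236), while Ager, the other of the 2 tested, had 0.10 and did not pass. The sum of keratinocyte markers (9 of 12) was 3.24 to 6.76 CPM in IPL and 3.21 to 5.26 CPM in SC tumors, and of the 3 tested Trp63 rose in IPL tumors by 1.00 (adjusted p = 0.0166), while Sfn (-0.55) and Krt10 (0.34) did not pass. Csn3, a casein gene of the mammary list, also rose (1.99, adjusted p = 0.000682), but the other 3 with a value (Csn1s1, Csn2 and Wap) were at 0 in every AB1 IPL tumor. The part of these cells in the Cdh1 difference was not tested.

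Between the models, Cdh1 was 1.89-fold higher in AB1 SC than in AE17 SC tumors (log2 0.92, SE 0.284, edgeR adjusted p = 0.0062), with 4 of 8 AB1 tumors above all AE17 tumors. Without AB1 SC replicate 6 the difference was 0.61 (adjusted p = 0.0401), and it did not pass in 2 of 8 other settings, with lane as a covariate (0.56, adjusted p = 0.448) and with limma-voom (0.47, adjusted p = 0.0599). In IPL tumors the difference was -0.26 (SE 0.289, interval -0.85 to 0.33, adjusted p = 0.440). In the order of medians, AB1 SC, AE17 SC, AE17 IPL, AB1 IPL, only the first step passed the test.

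Cdh2 encodes N-cadherin, the cadherin of mesenchymal and neural cells that replaces E-cadherin in the classical switch (ENSMUSG00000024304.14, chromosome 18, 16588877 to 16809246). It did not pass the test between sites in either model. AB1 IPL tumors had 74.4, 92.5 and 119 CPM, AB1 SC tumors 65.3, 90.5 and 99.6 CPM (lowest, median, highest), with a log2 difference of 0.06 (SE 0.103, interval -0.16 to 0.28, edgeR adjusted p = 0.690). AE17 IPL tumors had 55.1, 57.4 and 70.1 CPM and AE17 SC tumors 49.6, 64.0 and 78.5 CPM, with a difference of -0.07 (SE 0.0857, interval -0.25 to 0.11, adjusted p = 0.656). The site groups of a model overlapped almost wholly, and the gap lay between the models.

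Cdh2 was higher in AB1 than in AE17 tumors at both sites. Every AB1 IPL tumor lay above every AE17 IPL tumor, and the difference was 1.51-fold (log2 0.60, SE 0.098, edgeR adjusted p = 3.45e-06). In SC tumors it was 1.36-fold (log2 0.45, SE 0.0979, adjusted p = 0.000223), with 5 of 8 AB1 tumors above all AE17 tumors. With lane as a covariate these differences were 0.44 (adjusted p = 0.0941) and 0.38 (adjusted p = 0.111) and did not pass.

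The counts of Cdh2 over those of Cdh1, each per kilobase of exon, put both cadherins of a tumor on a common scale. The ratio is a description built from the values above and was not tested. It was 3.52, 7.14 and 8.25 in AB1 IPL tumors (lowest, median, highest) and 0.630, 1.90 and 3.82 in AB1 SC tumors. It was 2.51, 3.48 and 5.49 in AE17 IPL and 1.48, 2.23 and 6.65 in AE17 SC tumors. AB1 SC replicate 6 was the only tumor of the 32 with a ratio under 1, and the pleural AB1 tumors had the highest median. The lengths used were 8066 bases for Cdh2 and 4574 bases for Cdh1, all annotated exons merged. Before division by length, AB1 SC replicate 6 had 1334 counts of Cdh2 and 1200 of Cdh1, so its ratio under 1 depends on these lengths.

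**Figure D2:**
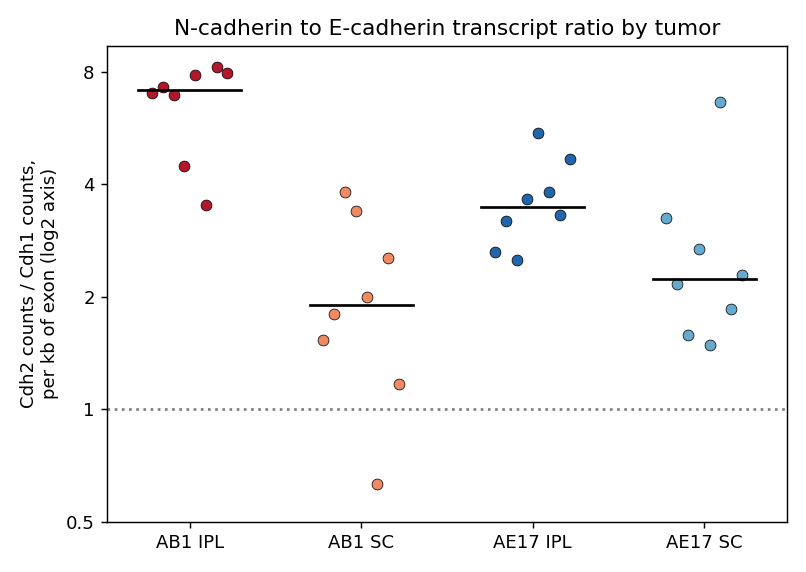
Ratio of Cdh2 to Cdh1 counts per kilobase of exon (log2 axis) in each of 32 tumors, by group, with the group median as a line and a dotted line at 1. The median is 7.14 in AB1 IPL and 1.90 in AB1 SC tumors, and 3.48 and 2.23 in AE17 IPL and SC tumors.

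Vim encodes vimentin (ENSMUSG00000026728.9, chromosome 2, 13573927 to 13582826). In AB1 it did not pass the test between sites. IPL tumors had 3693, 4051 and 4639 CPM and SC tumors 3157, 4053 and 4381 CPM (lowest, median, highest), with a log2 difference of 0.03 (SE 0.0725, interval -0.12 to 0.19, edgeR adjusted p = 0.778). The AB1 groups thus covered nearly the same range.

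In AE17, IPL tumors had 2853, 3146 and 3727 CPM of Vim and SC tumors 2915, 4323 and 6409 CPM. Of the 8 SC tumors 6 lay above all IPL tumors, and replicate 6 was the highest of the 32 tumors. The log2 fold change was -0.41 (SE 0.122, edgeR unadjusted p = 0.00336, adjusted p = 0.0542) and narrowly missed the threshold. It passed with DESeq2 (-0.42, adjusted p = 0.0167), with limma-voom (-0.41, adjusted p = 0.00146), with all 32 tumors in a single fit (-0.42, adjusted p = 0.00983), and without AE17 SC replicate 1, 3 or 4 (adjusted p = 0.0340, 0.0171 and 0.0411). Within lane 1 it was -0.50 (adjusted p = 0.297).

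The site effect on Vim differed between models by 0.46 (edgeR interaction, SE 0.143, adjusted p = 0.0199), and by 0.36 (adjusted p = 0.0329) without AE17 SC replicate 6. With lane as a covariate it was 0.50 and did not pass (adjusted p = 0.243). In IPL tumors Vim was 1.28-fold higher in AB1 than in AE17 (log2 0.35, SE 0.101, adjusted p = 0.00295), with 6 of 8 AB1 tumors above all AE17 tumors, but with lane as a covariate the difference was 0.24 (adjusted p = 0.410). In SC tumors it was -0.11 (SE 0.101, interval -0.32 to 0.10, adjusted p = 0.361).

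Esrp1, a splicing regulator of epithelial cells (ENSMUSG00000040728.15, chromosome 4, 11331933 to 11386783), was at or under the detection limit in 29 of the 32 tumors, with 0 to 2 counts each. It passed the filter on low counts in no comparison. The exceptions were 3 AE17 SC tumors, replicates 5, 6 and 7, with 13, 16 and 5 counts (0.823, 0.932 and 0.298 CPM). The other 5 AE17 SC tumors had no count. On the CPM scale the mean was 0.257 in AE17 SC and 0.00713 in AE17 IPL tumors (exact two-sided permutation test, n = 8 and 8, p = 0.2, 1 of 4 such tests; smallest p possible 0.000155). The other 3 tests gave exact p values of 0.2 (AB1 SC against AE17 SC), 0.323 (AB1 IPL against AE17 IPL) and 0.732 (AB1 IPL against SC).

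Keratinocyte markers moved with these Esrp1 counts in part. Their sum was 40.4 and 53.5 CPM in AE17 SC replicates 5 and 6, against 7.52 to 16.7 CPM in the other AE17 SC tumors, among them replicate 7 with 13.8 CPM. Cdh1 did not move with them in the same way, since AE17 SC replicate 5 had the highest Cdh1 of its group (25.8 CPM) and replicate 6 the lowest (6.70 CPM). The part of skin cells in these values was not tested.

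Snai1 encodes Snail, a zinc finger repressor of Cdh1 (ENSMUSG00000042821.7, chromosome 2, 167538195 to 167542814, the gene whose promoter is printed above). In AB1 it was 1.40-fold higher in IPL than in SC tumors. IPL tumors had 15.9, 21.7 and 29.96 CPM and SC tumors 13.2, 14.6 and 20.1 CPM (lowest, median, highest). Every IPL tumor lay above the SC median, and 4 of 8 lay above all SC tumors. The log2 fold change was 0.49 (SE 0.148, edgeR adjusted p = 0.0237). It was lost without AB1 SC replicate 5 (0.45, adjusted p = 0.0506). It was also lost in 2 of 9 other settings, with lane as a covariate and within lane 3 (0.34, adjusted p = 0.666). Without AB1 IPL replicate 4, the tumor with the highest value, it was 0.38 (adjusted p = 0.0496).

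In AE17 the sites did not separate for Snai1, with 28.98, 35.2 and 47.4 CPM in IPL and 31.6, 36.7 and 46.0 CPM in SC tumors. The log2 difference was -0.04 (SE 0.102, interval -0.26 to 0.18, edgeR adjusted p = 0.842). The interaction of model and site was 0.54 (SE 0.18, adjusted p = 0.0302). It was lost without AB1 IPL replicate 4 or 6, AB1 SC replicate 5 or 8, or AE17 SC replicate 6 (0.47 to 0.51, adjusted p 0.0503 to 0.0542), and in 2 of 7 other settings, with lane as a covariate (0.51, adjusted p = 0.362) and with limma-voom (0.38, adjusted p = 0.0558).

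The models differed in Snai1 more than the sites did. In SC tumors it was 2.42-fold lower in AB1 than in AE17, and all 8 AB1 tumors lay below all 8 AE17 tumors (log2 -1.28, SE 0.13, edgeR adjusted p = 4.64e-10). In IPL tumors it was 1.66-fold lower (log2 -0.73, SE 0.128, adjusted p = 9.34e-06), with 7 of 8 AB1 tumors below all AE17 tumors. With lane as a covariate both differences passed, at -1.41 (adjusted p = 3.28e-05) and -0.90 (adjusted p = 0.00748). Snai1 was the only member for which both model differences passed in each of the 8 other settings tried. The order of Snai1 across groups was not the reverse of that of Cdh1: AB1 SC tumors had the lowest Snai1 and the highest Cdh1, but AE17 SC tumors had the highest median of Snai1 and the second highest of Cdh1.

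Zeb1 (ENSMUSG00000024238.13, chromosome 18, 5591860 to 5775467) and Zeb2 (ENSMUSG00000026872.17, chromosome 2, 44983632 to 45117395) encode related zinc finger homeobox repressors of epithelial genes. Neither passed the test between sites in either model. Zeb1 had 44.8, 94.5 and 109 CPM in AB1 IPL and 81.1, 82.9 and 98.3 CPM in AB1 SC tumors (lowest, median, highest), with a log2 difference of 0.02 (SE 0.131, interval -0.26 to 0.30, edgeR adjusted p = 0.917). It had 84.1, 97.1 and 116 CPM in AE17 IPL and 79.9, 105 and 120 CPM in AE17 SC tumors, with a difference of -0.09 (SE 0.0784, interval -0.26 to 0.08, adjusted p = 0.507). The low end of Zeb1 in AB1 IPL was a single tumor, replicate 4, and the next lowest had 77.7 CPM.

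Zeb2, which macrophages and other myeloid cells also express, had 42.1, 149.9 and 170 CPM in AB1 IPL and 130, 161 and 205 CPM in AB1 SC tumors, with a log2 difference of -0.28 (SE 0.199, interval -0.71 to 0.14, edgeR adjusted p = 0.329). The lowest value was again that of replicate 4. Without that tumor the differences in AB1 were -0.17 for Zeb2 and 0.10 for Zeb1, and neither passed. In AE17 Zeb2 had 96.5, 134 and 153 CPM in IPL and 121, 152 and 170 CPM in SC tumors, with a difference of -0.13 (SE 0.091, interval -0.33 to 0.06, adjusted p = 0.383). Macrophage markers (7 of 8 with a value) summed to 1572 to 3182 CPM in AB1 IPL and 2214 to 3385 CPM in AB1 SC tumors, and to 2507 to 2949 and 1898 to 3147 CPM in AE17. In AB1, 3 of 7 fell in IPL tumors (Mrc1, Cd68 and C1qa) and none rose, beside 10.7% and 12.3% of all genes. In AE17 none of 7 passed. The part of macrophages in the Zeb2 values was not tested. Zeb1 and Zeb2 both have long exons, 10266 and 19942 bases. The part of these lengths in the low values of the library with low long genes was not tested.

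Between the models Zeb1 was 1.20-fold lower in AB1 SC than in AE17 SC tumors (log2 -0.26, SE 0.111, edgeR adjusted p = 0.0435), with 7 of 8 AE17 tumors above all AB1 tumors. This call was at the edge of the threshold: it was lost in 12 of 32 fits that left out a tumor (AB1 IPL replicate 1, AB1 SC replicates 1, 3, 4, 5 and 7, AE17 SC replicates 2, 4, 5, 6, 7 and 8), with adjusted p between 0.0513 and 0.0881, and in 3 of 8 other settings, with lane as a covariate (-0.46, adjusted p = 0.0832), with no filter on low counts (-0.25, adjusted p = 0.0689) and with a block for the replicate number (-0.26, adjusted p = 0.0613). In IPL tumors the difference was -0.13 (SE 0.111, interval -0.36 to 0.10, adjusted p = 0.316). Zeb2 differed by 0.15 in SC (SE 0.161, interval -0.18 to 0.48, adjusted p = 0.449) and 0.02 in IPL tumors (SE 0.161, interval -0.31 to 0.35, adjusted p = 0.933). Antisense genes share a small part of these exons, Gm10125 1.93% of Zeb1 and Zeb2os 3.27% of Zeb2, and whether the counting used the strand is not given in the sources used here, so reads in these stretches cannot be told apart.

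**Figure D3:**
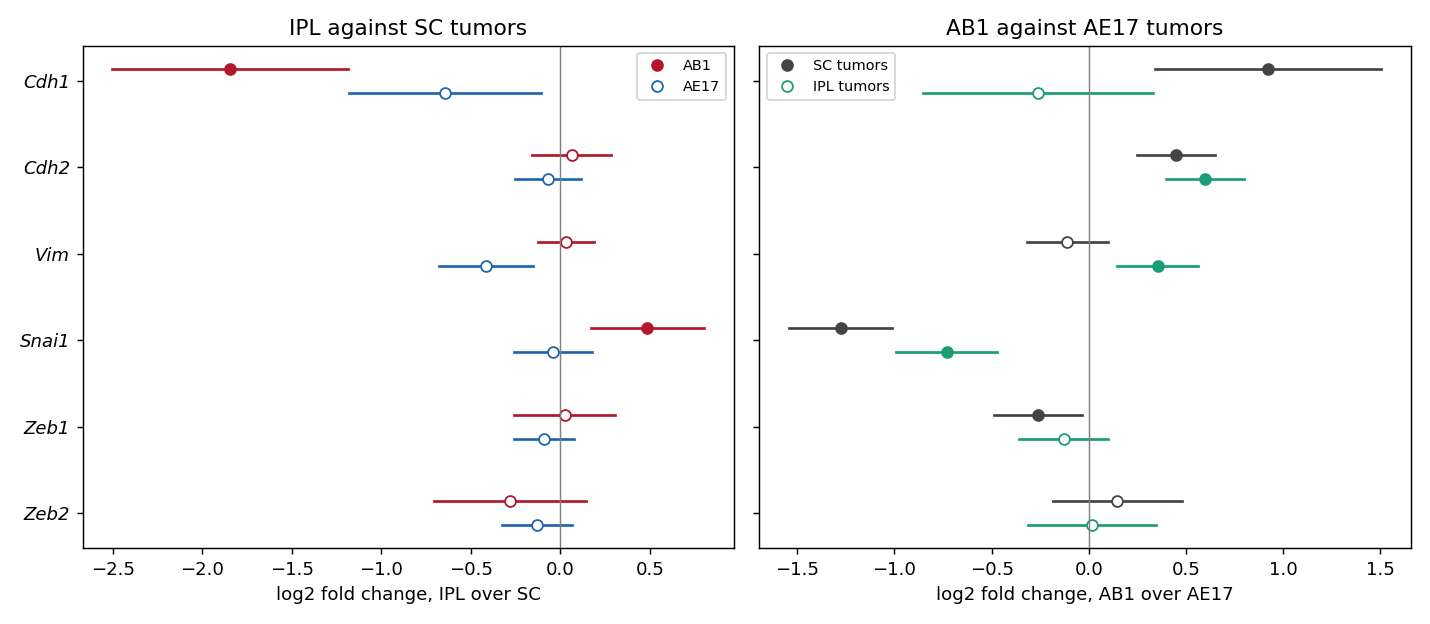
Log2 fold changes with 95% intervals of the 6 tested EMT genes between IPL and SC tumors in each model (left) and between AB1 and AE17 tumors at each site (right), where filled points have an adjusted p under 0.05 (edgeR). Cdh1 at -1.85 and Snai1 at 0.49 are the filled points of the site comparison in AB1, none is filled in AE17, and Snai1 at -1.28 and -0.73 lies lowest on the right.

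Counted together, 2 of 6 tested members passed the test between sites in AB1, Cdh1 lower and Snai1 higher in IPL tumors, where 23% of 14645 tested genes passed (12.3% higher and 10.7% lower). In AE17 none of 6 passed with edgeR, where 5.73% of 14668 genes passed (2.60% higher and 3.13% lower in IPL tumors). There Cdh1 and Vim had an unadjusted p under 0.05, DESeq2 called 1 member (Vim), and limma-voom called 2 (Cdh1 and Vim). In the comparison of models 4 of 6 passed in SC tumors (Cdh1 and Cdh2 higher, Snai1 and Zeb1 lower in AB1), beside 58.3% of 15681 genes (28.6% higher and 29.7% lower in AB1), and 3 of 6 in IPL tumors (Cdh2 and Vim higher, Snai1 lower), beside 63.4% (31.6% higher and 31.8% lower). The interaction passed for 3 of 6 (Cdh1, Vim and Snai1), beside 20.5% of genes (11.9% more positive and 8.62% more negative in AB1). The share of members called between models was thus close to that of all genes.

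Other EMT transcription factors were read from a list of 13, all measured. In AB1, 3 of 11 tested rose in IPL tumors and 1 fell, beside 12.3% and 10.7% of all genes, with a median log2 change of 0.07 beside 0.00 for all genes tested. Sox4, a progenitor cell factor, rose by 0.86 (SE 0.1, edgeR adjusted p = 2.47e-05), from 74.9 to 95.2 CPM in SC tumors to 112 to 201 CPM in IPL tumors without overlap. Prrx2, a mesenchymal homeobox factor, rose by 0.79 (adjusted p = 0.000445), and Tcf3, the E protein E2A, by 0.25 (adjusted p = 0.0401), while Ets1 fell by 0.25 on the log2 scale (adjusted p = 0.00653).

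In AE17 none of 12 tested factors rose and 4 fell in IPL tumors, beside 2.60% and 3.13% of all genes, with a median of -0.49 beside 0.00 for all genes. They were the mesenchymal factors Prrx2, which fell by 1.14 (edgeR adjusted p = 0.0205), Prrx1, which fell by 1.13 (adjusted p = 0.0207), and Twist2, which fell by 0.82 (adjusted p = 0.0248), and the forkhead factor Foxc1, which fell by 0.55 (adjusted p = 0.0237). Prrx2 went from 27.1 to 90.0 CPM in SC to 15.2 to 37.3 CPM in IPL tumors, so that it moved in opposite directions in the models. The interaction passed for 8 of 12 factors, 7 of them more positive in AB1 (Prrx1, Prrx2, Sox4, Sox9, Foxc1, Twist2 and Tcf3) and Ets1 more negative, beside 11.9% and 8.62% of all genes.

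Of 32 genes of the epithelial programme, 25 were measured, but most at low counts, so that only 7 entered the test in AB1 and 9 in AE17. In AB1 the keratin Krt7 rose by 1.91 (edgeR adjusted p = 0.0183) and the tight junction gene Ocln by 0.73 (adjusted p = 0.0163) in IPL tumors, while the membrane protease gene St14 fell by 0.85 (adjusted p = 0.00888), so that 2 rose and 1 fell beside 12.3% and 10.7% of all genes, with a median over the list of -0.38. In AE17 none of 9 passed, beside 5.73% of all genes, with a median of 0.57. Krt7 was low throughout, at 0.347 to 7.30 CPM in AB1 IPL and 0.233 to 0.758 CPM in AB1 SC tumors. The tested epithelial genes therefore did not all move with Cdh1.

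Of 23 tested genes of the mesenchymal programme, 11 rose in AB1 IPL tumors and 2 fell, beside 12.3% and 10.7% of all genes, with a median of 0.45. Fn1, fibronectin, rose by 0.86 (edgeR adjusted p = 0.00021), from 1849 to 3144 CPM in SC to 2927 to 5686 CPM in IPL tumors. Col5a1, a fibrillar collagen, rose by 0.88 (adjusted p = 0.000524) and Pdgfrb, a receptor of fibroblasts and pericytes, by 0.49 (adjusted p = 0.000184), while Axl fell by 0.38 on the log2 scale (adjusted p = 0.00113) and Cd44 by 0.27 (adjusted p = 0.0218). Vim, which is outside this list, had 0.03 in the same comparison and did not pass.

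The sum of fibroblast markers (6 of 8 with a value) was 3434 to 10267 CPM in AB1 IPL and 3058 to 4298 CPM in AB1 SC tumors. This sum is no separate measure, since 3 of the 8 are also in the mesenchymal list and most of it came from Col1a1 (mean 2227 CPM in IPL) and Col1a2 (mean 3832 CPM), both of that list. Of the fibroblast markers outside it, Pi16 (0.97, edgeR adjusted p = 0.00715) and Dpt (1.13, adjusted p = 0.00782) rose, and Fbln1 (1.20, adjusted p = 0.0543) did not pass. The part of fibroblasts in the result was not tested. In AE17, 2 of 23 mesenchymal genes rose and 1 fell, beside 2.60% and 3.13% of all genes, with a median of -0.02. These were the integrin gene Itgb3 with 0.63 (edgeR adjusted p = 0.00598), the smooth muscle gene Tagln with 1.21 (adjusted p = 0.0153) and S100a4, which fell by 0.90 (adjusted p = 0.00661). The interaction passed for 12 of 23, with 11 more positive and Axl more negative in AB1, beside 11.9% and 8.62% of all genes.

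Among 21 other cadherins 19 were measured and 7 tested in each model. In AB1, 3 rose and none fell in IPL tumors, beside 12.3% and 10.7% of all genes: Cdh15, the cadherin of muscle cells, by 3.10 (edgeR adjusted p = 0.000363), Cdh23, known from the hair cells of the inner ear, by 0.80 (adjusted p = 0.00444) and Cdh5, the cadherin of endothelium, by 0.42 (adjusted p = 0.0284). Skeletal muscle markers (8 of 8) summed to 107 to 4925 CPM in AB1 IPL and 55.0 to 559 CPM in AB1 SC tumors, and endothelial markers (6 of 7) to 92.8 to 171 and 105 to 129 CPM, and their part was not tested. In AE17, 1 rose and none fell, beside 2.60% and 3.13% of all genes: Cdh3, P-cadherin, by 1.64 (adjusted p = 0.0144), from 0.291 to 1.14 CPM in SC to 0.832 to 3.80 CPM in IPL tumors.

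Catenins, which link cadherins to the cytoskeleton, and nectins, which are adhesion receptors of the same junctions, were read from a list of 14 genes, of which 11 were measured and 9 tested. In AB1, Jup, which encodes plakoglobin of adherens junctions and desmosomes, rose by 1.60 in IPL tumors (SE 0.144, edgeR adjusted p = 3.88e-06), and none of the other 8 passed, beside 12.3% of all genes higher and 10.7% lower. All IPL tumors (45.4 to 91.0 CPM) lay above all SC tumors (17.8 to 31.4 CPM). In AE17, Jup rose by 0.57 (adjusted p = 0.0279), Nectin2 by 0.61 (adjusted p = 0.0271) and Afdn by 0.33 (adjusted p = 0.0487), and none fell, beside 2.60% and 3.13% of all genes. The rise of Jup was wider in AB1 than in AE17 (interaction 1.05, adjusted p = 0.000708).

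**Figure D4:**
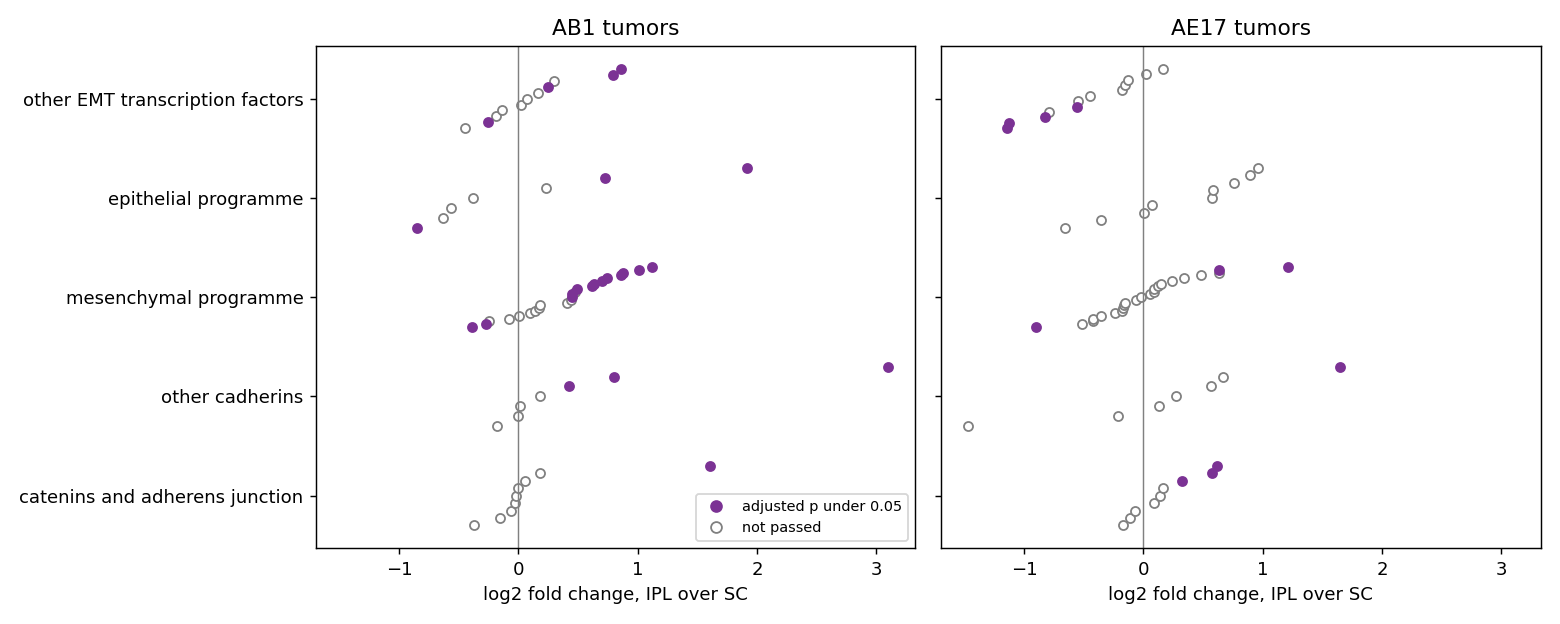
Log2 fold changes between IPL and SC tumors of every tested gene in 5 lists of EMT-related genes, in AB1 (left) and AE17 (right), where filled points have an adjusted p under 0.05 (edgeR). In AB1, 11 of 23 mesenchymal genes are filled on the right of 0 and 2 on the left, and in AE17 the 4 filled transcription factors all lie left of 0.

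Between the models, more of the mesenchymal and epithelial genes were higher in AE17. In SC tumors 17 of 23 mesenchymal genes and 8 of 11 epithelial genes were lower in AB1 than in AE17, none and 1 (Spint2) were higher, and the medians were -0.90 and -2.23 beside 0.00 for all genes. In IPL tumors 14 of 23 mesenchymal and 8 of 11 epithelial genes were lower, and 4 (Fn1, Col3a1, Col1a2 and S100a4) and none were higher, with a median of -0.45 over the mesenchymal list. Markers of fibroblasts and epithelia differed in the same direction in part. Fibroblast markers (6 of 8) summed to 3058 to 4298 CPM in AB1 SC and 7719 to 11494 CPM in AE17 SC tumors without overlap, and 4 of 6 were lower and 1 higher in AB1. Of the tested keratinocyte and lung epithelium markers, 2 of 3 in each list were lower in AB1 SC tumors and none higher. In IPL tumors the fibroblast sums overlapped (3434 to 10267 CPM in AB1, 5934 to 13092 CPM in AE17), and 3 of 6 markers were higher and 3 lower in AB1. Keratinocyte sums in IPL tumors did not overlap (3.24 to 6.76 CPM in AB1, 13.8 to 18.2 CPM in AE17), with Sfn and Krt10 lower and Trp63 higher in AB1, and of 3 tested lung epithelium markers Ager and Foxj1 were lower. The part of these cells in the list counts was not tested. Of 12 other EMT transcription factors, 5 were lower (Sox9, Prrx2, Foxc1, Twist2 and Sox4) and Foxc2 higher in AB1 SC tumors, and 4 were lower (Sox9, Ets1, Prrx2 and Snai3) and 4 higher (Foxc2, Tcf3, Prrx1 and Sox4) in AB1 IPL tumors. Of 8 other cadherins, 5 were lower (Cdh3, Cdh5, Cdh11, Cdh13 and Cdh23) and Cdh26 higher in AB1 SC tumors, and 4 were lower (Cdh3, Cdh11, Cdh17 and Cdh23) and Cdh15 and Cdh26 higher in AB1 IPL tumors. Of 9 catenin and junction genes 3 passed in each direction at each site, among them Nectin2, which was higher in AB1 at both, and Nectin1 and Nectin4, which were lower at both. Of all genes, 29.7% were called lower and 28.6% higher in AB1 SC tumors, and 31.8% lower and 31.6% higher in AB1 IPL tumors. The counts of the junction genes at both sites, and of the factors in IPL tumors, were near these shares.

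Within groups, some members followed each other and Cdh1 followed none closely. Over the 32 tumors, after group means were removed, log2 CPM of Zeb1 and Zeb2 had Pearson's r of 0.83 and Spearman's rho of 0.51, and r was 0.57 without AB1 IPL replicate 4. Cdh2 and Vim had r = 0.59 and rho = 0.55, and Snai1 and Zeb2 had r = -0.52 and rho = -0.46. Without AB1 IPL replicate 4, r of Snai1 and Zeb2 was -0.44. Snai1 has the shortest and Zeb2 the longest exons of the members (1621 and 19942 bases), and the part of exon length in this value was not tested. Cdh1 and each of the other 5 had r between -0.27 and 0.02. These are descriptions over tumors that share libraries and depth, with no test.

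By the same measure, the genes most like 5 of the members were named among 15681. They were Selenoi, Ndc1 and Eif1ax for Cdh2 (r = 0.81, 0.80 and 0.80), Ngef, Eml1 and Emp1 for Vim (0.82, 0.80 and 0.79) and Maz, Kctd15 and Gm22 for Snai1 (0.77, 0.77 and 0.75). For Zeb1 they were Ift80, Ift81 and Mterf2 (0.94, 0.94 and 0.93) and for Zeb2 Ccdc50, Secisbp2l and Baz2b (0.97, 0.95 and 0.95). The values of the ZEB genes leaned on AB1 IPL replicate 4: without it the nearest were Ift80, Mterf2 and Tcf4 for Zeb1 (0.84, 0.83 and 0.83) and Ccdc50, Tlr8 and Mtm1 for Zeb2 (0.89, 0.84 and 0.81). Names also changed for Cdh2, to Selenoi, Nop2 and Rtel1 (0.82, 0.79 and 0.79), and for Vim, to Dap, Ngef and Emp1 (0.82, 0.82 and 0.81). Snai1 kept the same 3 genes in another order. No member was among the 3 genes most like any of these 5.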

How the data were processed

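Poly(A) RNA of 32 whole tumors was sequenced as single 50 base reads. The authors mapped the reads with HISAT2 2.0.4 (bcl2fastq 1.8.4 and HISAT2 are named in the submitters' processing notes) and deposited raw counts of reads per gene, without normalization. Their methods name the genome as mm11, the annotation they counted on is not given in the sources used here, and the build of the alignment could not be settled from the counts. The gene identifiers matched, for 39495 of 39676, GENCODE M21 (GRCm38) without the version, which gave positions and exon lengths. Differences were tested on the deposited counts with edgeR 4.0.16 in R 4.3.3 (filterByExpr, TMM, robust quasi-likelihood F test, two-sided), with 16 mice in each fit within a model and all 32 in a fit of 4 groups for the models and the interaction. P values were adjusted over all tested genes by the Benjamini-Hochberg method, with a threshold of 0.05. CPM used TMM factors over all tumors and log2 CPM a prior count of 2. Alternatives were DESeq2 1.42.0, limma 3.58.1 (voom with sample quality weights), other size factors and filters, the lane, the samples in the fit, and leaving out each mouse. The procedures were tested on simulated data. Reads carry no molecular identifiers. For its growth comparison of the sites, the paper states that the inoculated cells came from a shared culture. Nothing in the labels ties tumors of a group to separate cultures, so p values measure the spread between mice and not between cultures.

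The members and the gene lists were chosen with earlier results of these data known. Named were all members, in each list at most the 3 called genes with the smallest adjusted p in a comparison of sites, the genes of any count of 5 or fewer and, for likeness, the 3 nearest genes of each member (those of Cdh1 are not reported here). Names given for the comparisons between models, for the 7 factors of the interaction, for Itgae, Cd209a, Pi16, Dpt, Fbln1, Napsa, Ager, Foxj1, Trp63, Sfn, Krt10 and Csn3, and for Spint1, Elf3, Grhl2 and Cdh26 were chosen after the values were seen.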

Additional observations from a re-analysis of the deposited data

Results flagged for a closer look

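Of 28 sets of 8 tumors (7 genes in 4 groups), 5 held a tumor far from the rest by Dixon's test at the 95% level, where chance flags about 1 in 20. Cdh1 was 15.8 CPM in AB1 IPL replicate 6 (next 9.43) and 70.0 CPM in AB1 SC replicate 6 (next 34.8). Vim was 6409 CPM in AE17 SC replicate 6 (next 4449). Zeb2 was 42.1 CPM in AB1 IPL replicate 4 (next 115). Esrp1 was 0.0570 CPM in AE17 IPL replicate 8, which is 1 count where the other 7 tumors had none.

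The site effect differed between the models by a test of the interaction for 3 genes: by -1.18 for Cdh1, 0.46 for Vim and 0.54 for Snai1 (log2, AB1 minus AE17). The causes of these values were not tested.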

How the results depend on the processing

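Of the members called, Cdh1 in AB1 passed in all 9 other settings (-1.99 to -1.74, adjusted p 2.97e-08 to 0.0267), and Snai1 between models in all 8 at each site. Called members numbered 2 in AB1 but 1 with lane as a covariate and 1 within lane 3, and 0 in AE17 but 1 with DESeq2, 2 with limma-voom and 1 with all 32 mice in 1 fit. With lane as a covariate they numbered 1 between SC tumors, 1 between IPL tumors and 0 for the interaction. Leaving out each mouse gave 1 to 2 in AB1, 0 to 1 in AE17 (1 without AE17 SC replicate 1, 3 or 4), 3 to 4 between SC tumors, 3 between IPL tumors, and 1 to 3 for the interaction (1 without AE17 SC replicate 6). With the replicate number as a block, 2, 0, 3, 3 and 2 members were called, and calls over all genes in AB1 went from 3374 to 2263. Same-numbered tumors did not all deviate together (r -0.287 to -0.00269 in AB1, -0.227 to 0.271 in AE17; 0 and 3 of 8 were most like their own number), so the number was not taken to pair mice.

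No called member turned its direction. Values that did were small and had not passed. In AB1 Vim was -0.027 with limma-voom, -0.020 with the lane and -0.064 within lane 3, Cdh2 -0.044 with the lane and -0.085 within lane 3, and Zeb1 -0.013 with the block and -0.031 within lane 3. Zeb1 between IPL tumors was 0.0028 with limma-voom and Zeb2 -0.014 with the block. The Zeb2 interaction was 0.058 with limma-voom and 0.17 with the lane. Without single mice, Zeb1 in AB1 ran from -0.020 to 0.095, Snai1 in AE17 from -0.11 to 0.0051, Zeb2 between IPL tumors from -0.039 to 0.15 and the Zeb2 interaction from -0.19 to 0.0063. The Zeb1 interaction passed with limma-voom (0.27, adjusted p = 0.0394). The causes were not tested. Lane calls rest on few mice of 1 site, and Esrp1 lies at the depth limit.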

Other observations

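Some other epithelial genes separated the models more than Cdh1 did, whose groups overlapped. Spint1, an inhibitor of membrane serine proteases, had 6.06 to 36.4 CPM over the AE17 tumors and 0.0542 to 0.894 CPM over the AB1 tumors, without overlap. Elf3, an epithelial ETS factor, had 0.291 to 3.46 CPM in AE17 and at most 3 counts in any AB1 tumor. Grhl2, a grainyhead factor of epithelia, had 0.298 to 1.54 CPM in AE17 and at most 3 counts in AB1. All 3 passed the edgeR test between models at both sites (largest adjusted p = 2.09e-07, Grhl2 in SC tumors), and none passed between sites in AE17. Cdh26, a cadherin of some epithelia, went the other way, with 29.8 to 53.3 CPM in AB1 and 0.0594 to 3.28 CPM in AE17 tumors. These genes were named after their values were seen.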
